A study of Mus musculus with 24 samples.

Results

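The nuclear genes for subunits of the mitochondrial respiratory chain and of ATP synthase were followed in 3 successive thymocyte subsets, DN3a, DN3b and DN4, cultured with or without interleukin 7 (IL7). Members were chosen by symbol: Nduf subunit genes of complex I, Sdha to Sdhd of complex II, Uqcr genes and Cyc1 of complex III, Cox4 to Cox8 subunits of complex IV, and Atp5 genes of ATP synthase. The array held probes for 80 such symbols, and 72 of them had a probe detected on at least 4 of the 24 arrays (detection p-value under 0.05), out of 8820 genes measured in all. Where a gene had several such probes, the one with the highest mean signal stood for it. Of the 72 genes, 70 were detected on all 24 arrays, and Cox7b and Sdhd on 23. The other 8 symbols, Atp5k, Cox4i2, Cox7b2, Cox8b, Cox8c, Ndufs1, Uqcrfs1 and Uqcrq, were detected on 0 arrays, so no gene lay near the detection threshold. The 72 genes comprise 31 of complex I, 3 of complex II, 7 of complex III, 15 of complex IV and 15 of ATP synthase, with Ndufa4, first described in complex I, counted in complex IV. The remaining symbol, Ndufs5-ps, is a transcribed pseudogene of a complex I gene, whose probe may read Ndufs5 itself.

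The respiratory chain passes electrons from NADH (complex I) and succinate (complex II) through complex III to oxygen at complex IV, and complexes I, III and IV pump protons across the inner mitochondrial membrane. ATP synthase lets the protons flow back and makes ATP. Most subunits are encoded in the nucleus and a small core in mitochondrial DNA. In the thymus, cells that pass the pre-T cell receptor checkpoint leave the resting DN3a state, grow and divide as DN3b and DN4 cells, a step that raises their energy demand.

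All cultures came from C57BL/6J mice that carry the normal IL7 receptor gene (Il7r+/+), in 4 sorts that the labels call independent. DN3a cells were Lin-cKit-CD25+ with low CD71 and low forward scatter, DN3b cells were Lin-cKit-CD25+ with high CD71 and high forward scatter, and DN4 cells were Lin-cKit-CD25- with high CD71 and high forward scatter. After 1 h of rest, each subset was cultured for 3 h with 10 ng/ml IL7 or left untreated, and 250 ng of total RNA per culture was hybridised to an Illumina bead array. This gave 6 groups of 4 arrays: DN3a with IL7, untreated DN3a, DN3b with IL7, untreated DN3b, DN4 with IL7 and untreated DN4.

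Values are log2 signals after background correction and quantile normalization, so a difference of 1 is a doubling of signal. Array medians of raw intensity were 93.3 to 119.8, and arrays of a group correlated at 0.985 to 0.994. All 9 thymocyte markers with a probe, of 11 listed, were detected, among them Cd3d, Cd3e and Cd3g. Their summed linear signal was 38800 to 40700 in untreated DN3b cells, against 68500 to 83600 in untreated DN3a cells. Markers of other cells were not evenly spread. The alpha globin gene Hba-a1 was detected only in sorts 1 and 3, on 12 arrays. The other erythroid markers with a probe did not follow it. Hbb-bt and Alas2 were detected on 0 arrays, and Klf1 on 4, all of untreated DN3b cells or of DN4 cells with IL7. The summed linear signal of 7 granulocyte and myeloid markers was 170 to 8820 in untreated DN4 cells, against 169 to 397 in untreated DN3b cells, with S100a8 at a log2 signal of 12.39 and 12.29 in the untreated DN4 cells of sorts 2 and 3. In untreated DN3a cells this sum was 258 to 1170. Between untreated DN3b and untreated DN3a cells Lyz2 changed by -2.06 ± 0.61 (limma adjusted p = 0.015) and S100a8 by -1.5 ± 0.79 (limma adjusted p = 0.14). The 4 natural killer and cytotoxic markers summed to 268 to 473 in untreated DN3b cells, against 1890 to 2310 in untreated DN3a cells, although Ncr1 was not detected on any array. The 4 B cell markers with a probe summed to 520 to 682 in untreated DN3b cells, against 1200 to 1680 in untreated DN3a cells. This sum was mostly Cd79b, with a mean log2 signal of 8.91 in untreated DN3b cells, against 10.43 in untreated DN3a cells. Ms4a1 (5.13 against 5.06) and Ebf1 (4.78 against 4.84) were dim and differed little, and Cd79a was not detected on any array. The 2 gamma-delta T cell markers with a probe summed to 640 to 1020 in untreated DN3b cells, against 1000 to 1790 in untreated DN3a cells. For the 5 dendritic cell markers the sums were 161 to 201 in untreated DN3b cells, against 229 to 309 in untreated DN3a cells. In sorted bulk samples, fewer cells of a type and less RNA per cell cannot be told apart. Equal RNA was used per array, so every value is a share of a culture's RNA and not an amount per cell.

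In untreated cells the respiratory chain and ATP synthase genes stood higher in DN3b than in DN3a cells, with 52 of the 72 genes called higher and 4 called lower. A call is a limma adjusted p-value under 0.05 (Benjamini-Hochberg over the 8820 genes). Over all 8820 genes this comparison called 24.9% higher and 31% lower. The median log2 change was 0.43 over the 72 genes and -0.03 over all genes tested. In 45 of the 72 genes all 4 DN3b arrays lay above all 4 DN3a arrays, which held for 19.7% of all genes. The per-array median of the 72 genes was 12.2, 12.19, 12.22 and 12.19 in the untreated DN3b cells of sorts 1 to 4, against 11.94, 11.91, 11.93 and 11.78 in the untreated DN3a cells. The 2 groups of arrays did not overlap in this median. Top2a, a topoisomerase of dividing cells, was also higher in DN3b cells by 3.03 on the log2 scale, and CD71 and cell size were themselves used to sort the subsets. The part of these differences, or of the marker sums above, in the subunit result was not tested.

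**Figure D1:**
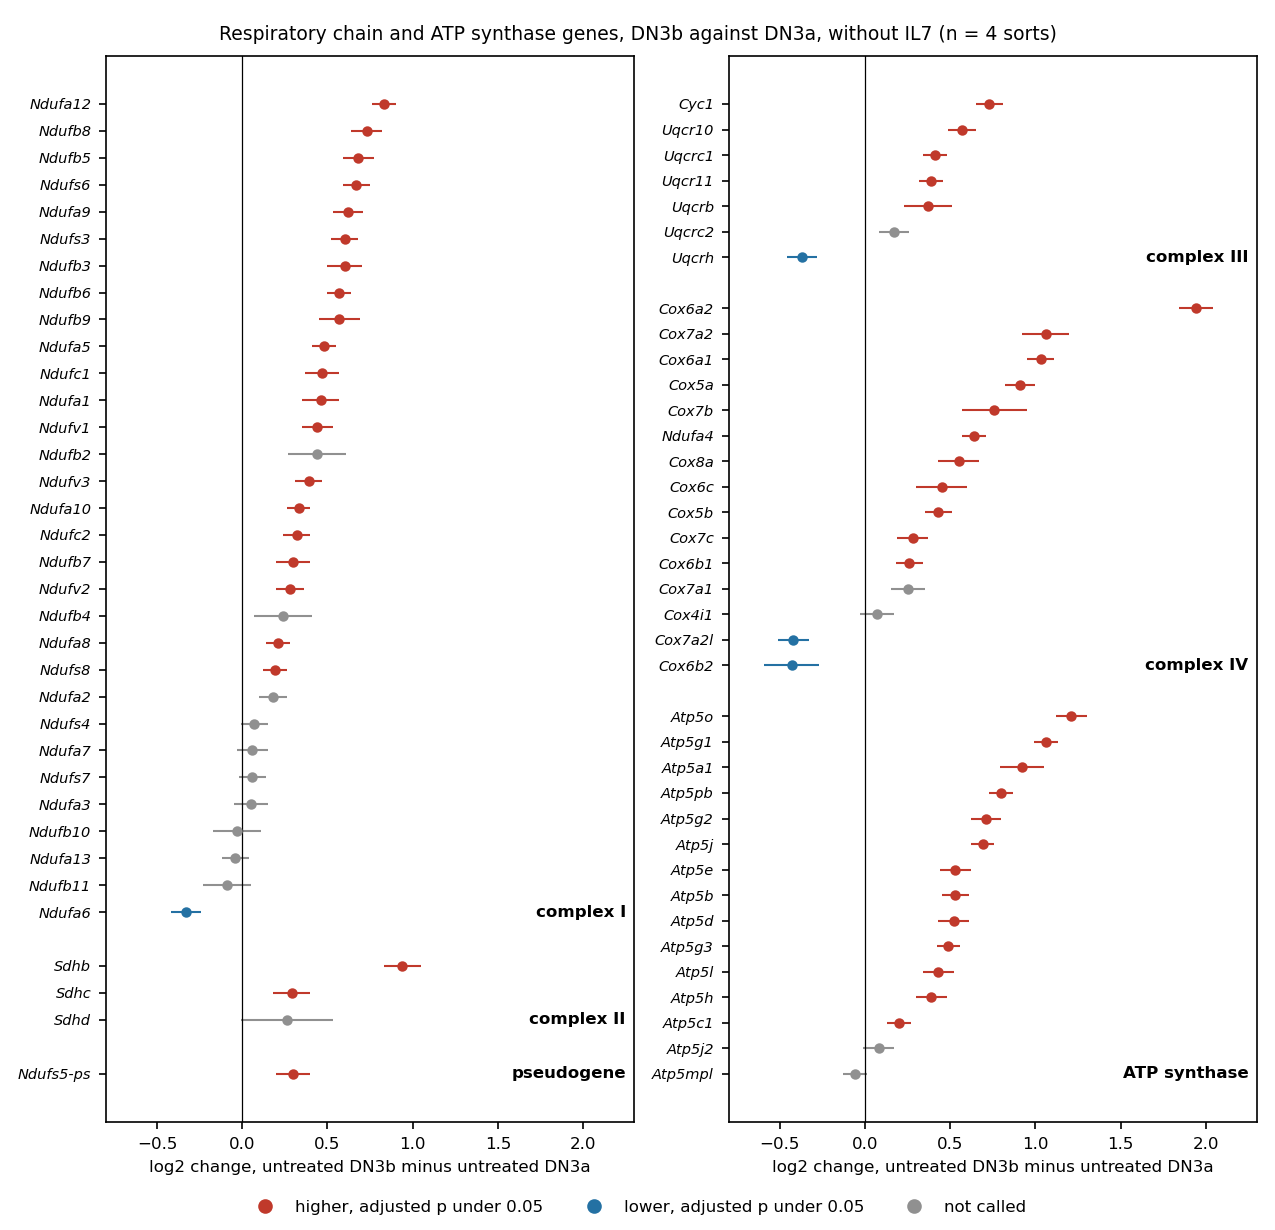
Log2 change of each of the 72 genes between untreated DN3b and untreated DN3a cells, in panels by complex, with points for the estimate and bars for limma's standard error (n = 4 sorts). Red points are called higher, blue points lower and grey points neither, and the red points lie between 0.19 and 1.21, with Cox6a2 apart at 1.94.

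Of the ATP synthase genes 13 of 15 were called higher and 0 lower, with a median log2 change of 0.53. Atp5o, which encodes the stalk subunit that confers oligomycin sensitivity, had log2 signals of 9.55, 9.36, 9.56 and 9.32 in untreated DN3b cells (sorts 1 to 4), against 8.49, 8.33, 8.05 and 8.06 in untreated DN3a cells. All 4 DN3b arrays were above all 4 DN3a arrays, a log2 change of 1.21 ± 0.09 (SE, limma adjusted p = 2.6e-06). Atp5a1 and Atp5b, the subunits that form the catalytic head, were higher by 0.92 ± 0.13 and 0.53 ± 0.08 (limma adjusted p = 1.4e-04 and 3.3e-04). Atp5pb, of the peripheral stalk, was higher by 0.80 ± 0.07 (limma adjusted p = 7.1e-06), and Atp5c1, the central rotor shaft, by 0.20 ± 0.07 (limma adjusted p = 0.03). The Atp5c1 call was lost when any 1 sort was left out, with adjusted p-values of 0.056 to 0.15. Atp5mpl and Atp5j2, small membrane subunits, were the members not called, at -0.06 ± 0.07 and 0.08 ± 0.09 (limma adjusted p = 0.51 and 0.52).

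The rotor ring of ATP synthase is built from subunit c, which 3 genes, Atp5g1, Atp5g2 and Atp5g3, encode with the same mature protein and different import sequences. Atp5g1 had log2 signals of 12.45, 12.37, 12.63 and 12.53 in untreated DN3b cells (sorts 1 to 4), against 11.41, 11.36, 11.49 and 11.47 in untreated DN3a cells. Every DN3b array was above every DN3a array, and the change of 1.06 ± 0.07 was a 2.09-fold higher signal (limma adjusted p = 9.9e-07). Atp5g2 had 11.66, 11.82, 11.6 and 11.69 in untreated DN3b cells, against 11.01, 10.95, 11.07 and 10.87 in untreated DN3a cells, again without overlap (0.71 ± 0.09, limma adjusted p = 5.1e-05). Atp5g3 had 14.7, 14.73, 15 and 14.81 in untreated DN3b cells, against 14.27, 14.28, 14.43 and 14.31 in untreated DN3a cells (0.49 ± 0.07, limma adjusted p = 2.3e-04). So each of the 3 genes for this protein was higher in DN3b cells in all 4 sorts. Whether the 3 changes differ from each other was not tested.

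Because these members moved in the same direction, their promoters are given here with those of Atp5h, a peripheral stalk subunit, and Cox6a1, a complex IV subunit, both of which hold more than 1 of the motifs searched. Each line gives the 200 bases before the transcription start, 5′ to 3′ on the gene's strand, from RefSeq (build GRCm38.p6). Capitals mark motif matches. They are the NRF1 motif (GCGCA, any base, then GCGC), bound by a nuclear respiratory factor, the ETS motif CCGGAAG, bound by GABPA, the YY1 motif AAGATGGCG and the E-box CACGTG, bound by MYC and its relatives, each searched on both strands (the ETS motif reads cttccgg on the other strand), and none of them contains another.
Atp5g1: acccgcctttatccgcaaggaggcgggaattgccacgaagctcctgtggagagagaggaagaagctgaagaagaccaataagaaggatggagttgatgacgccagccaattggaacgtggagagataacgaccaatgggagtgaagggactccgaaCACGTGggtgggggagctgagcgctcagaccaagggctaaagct
Atp5g2: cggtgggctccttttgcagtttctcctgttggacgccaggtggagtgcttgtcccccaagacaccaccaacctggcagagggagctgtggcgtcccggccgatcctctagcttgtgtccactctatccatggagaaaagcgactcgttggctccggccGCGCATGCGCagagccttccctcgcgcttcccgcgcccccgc
Atp5g3: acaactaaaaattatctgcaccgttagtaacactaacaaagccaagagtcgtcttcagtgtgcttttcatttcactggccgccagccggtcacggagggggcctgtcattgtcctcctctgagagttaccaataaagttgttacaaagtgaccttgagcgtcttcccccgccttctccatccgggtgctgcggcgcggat
Atp5h: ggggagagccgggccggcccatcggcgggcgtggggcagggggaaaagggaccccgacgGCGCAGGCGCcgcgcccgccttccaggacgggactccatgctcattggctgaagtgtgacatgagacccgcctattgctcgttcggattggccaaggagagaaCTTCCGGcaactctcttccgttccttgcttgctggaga
Cox6a1: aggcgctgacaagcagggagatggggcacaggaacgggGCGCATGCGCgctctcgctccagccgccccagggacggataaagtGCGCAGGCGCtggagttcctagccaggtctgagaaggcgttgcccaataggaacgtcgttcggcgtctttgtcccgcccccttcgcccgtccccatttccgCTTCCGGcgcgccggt
The stretches lie at chr11:96075632-96075831 (Atp5g1), chr15:102671048-102671247 (Atp5g2), chr2:73911327-73911526 (Atp5g3), chr11:115419920-115420119 (Atp5h) and chr5:115348959-115349158 (Cox6a1), all on the minus strand. Atp5g1 holds an E-box, Atp5g2 an NRF1 motif, Atp5g3 none of these letters in this stretch (the NRF1 motif and the E-box were found elsewhere in its 300-base window), Atp5h an NRF1 and an ETS motif, and Cox6a1 2 NRF1 motifs and an ETS motif. The promoter table held windows of 300 bases (250 before and 50 after the start) for 60 of the 72 genes, 65 windows in all. The NRF1 motif was in 21.5% of the 65 windows and in 4.6% of all 32851 windows, the ETS motif in 23.1% and 8.86%, the YY1 motif in 10.8% and 1.4%, and the E-box in 10.8% and 7.15%. Of the genes called higher in untreated DN3b cells, 44 had a window, of which 10 held the NRF1 motif, 13 the ETS motif, 4 the YY1 motif and 5 the E-box. Of the other 16 genes, 3 held the NRF1 motif, 2 the ETS motif, 3 the YY1 motif and 1 the E-box. A match is a description of the letters and not a binding site.

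Complex I, the NADH dehydrogenase, had 20 of 31 genes called higher and 1 called lower, with a median log2 change of 0.33. Ndufa12, an accessory subunit of the matrix arm, had log2 signals of 11.7, 11.77, 11.93 and 11.72 in untreated DN3b cells (sorts 1 to 4), against 10.88, 10.8, 11.2 and 10.93 in untreated DN3a cells. All 4 DN3b arrays were above the DN3a arrays (0.83 ± 0.07, limma adjusted p = 6.9e-06). Ndufa9, another accessory subunit, was higher by 0.62 ± 0.09 (limma adjusted p = 1.6e-04). Values for core subunits follow. Ndufs3 was higher by 0.60 ± 0.08, Ndufv1, the NADH-binding subunit, by 0.44 ± 0.09, and Ndufv2 and Ndufs8, which hold iron-sulphur clusters, by 0.28 ± 0.08 and 0.19 ± 0.07, with limma adjusted p-values of 1.2e-04, 0.0014, 0.012 and 0.042. The Ndufs8 call was lost without any 1 sort (adjusted p of 0.079 to 0.14). Ndufs7, which carries the last iron-sulphur cluster, did not pass the test (0.06 ± 0.08, limma adjusted p = 0.56). These core subunits, and Sdhc, Sdhd, Atp5a1, Atp5pb, Atp5c1 and Atp5h, were picked for their roles after their values were seen.

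The complex I member called lower was Ndufa6, an accessory subunit, with log2 signals of 12.52, 12.45, 12.35 and 12.57 in untreated DN3b cells (sorts 1 to 4), against 12.89, 12.78, 12.63 and 12.9 in untreated DN3a cells. The groups did not overlap, and the change was -0.33 ± 0.09 (limma adjusted p = 0.0092). With median scaling in place of quantile normalization the change was -0.08 (limma adjusted p = 0.55), so this call depends on the scaling. Several members have other probes, and 5 of the 15 other probes of 11 members gave a different call in this comparison, with 0 of opposite sign. For Ndufs4, a late-joining accessory subunit whose reported probe showed 0.07 (limma adjusted p = 0.48), other probes showed 0.13, 0.35 and 0.36, with the last 2 of these called (limma adjusted p = 0.4, 0.049 and 0.0099). For Atp5j, of ATP synthase, the reported probe showed 0.69, and another, detected on 24 arrays, 0.21 (limma adjusted p = 0.17). For Ndufv3 the reported probe showed 0.39, and the others 0.24 and 0.6 (limma adjusted p = 0.2 and 2.7e-04).

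In complex II, which also works in the tricarboxylic acid cycle, Sdhb, the iron-sulphur subunit, had log2 signals of 10.88, 10.73, 10.49 and 10.45 in untreated DN3b cells (sorts 1 to 4), against 9.65, 9.99, 9.32 and 9.8 in untreated DN3a cells. The groups did not overlap (0.94 ± 0.11, limma adjusted p = 5.3e-05). Another Sdhb probe showed 0.82 (limma adjusted p = 8.1e-06), and a dim one, detected on 9 arrays, showed 0.10 (limma adjusted p = 0.46). Sdhc, a membrane anchor, was higher by 0.29 ± 0.11 (limma adjusted p = 0.043), a call lost without sort 1, 2 or 4 (adjusted p of 0.062 to 0.13). Sdhd, the other anchor, was dim and its sorts disagreed, with changes of 0.72, 0.35, -0.85 and 0.81 (0.26 ± 0.27, limma adjusted p = 0.44). Without sort 3 its change was 0.63 (limma adjusted p = 0.034).

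In complex III, 5 of 7 genes were called higher and 1 lower. Cyc1, the haem-bearing cytochrome c1 that hands electrons to cytochrome c, had log2 signals of 11.08, 11.01, 11.36 and 11.01 in untreated DN3b cells (sorts 1 to 4), against 10.23, 10.4, 10.54 and 10.38 in untreated DN3a cells. All DN3b arrays were above all DN3a arrays (0.73 ± 0.08, limma adjusted p = 2.5e-05). Uqcrc1, a core subunit, was higher by 0.41 ± 0.07 (limma adjusted p = 5.4e-04). Uqcrh, the hinge protein between cytochrome c1 and cytochrome c, was the member called lower, at 13.73, 13.83, 13.6 and 13.82 in untreated DN3b cells, against 14.08, 14.07, 14.25 and 14.08 in untreated DN3a cells. The groups did not overlap (-0.37 ± 0.09, limma adjusted p = 0.0046), but with median scaling the change was -0.09 (limma adjusted p = 0.48).

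Complex IV, cytochrome c oxidase, had 11 of 15 genes called higher and 2 lower, and it contains the largest change of the 72 genes in this comparison. Several of its subunits exist as tissue isoforms from separate genes. Cox6a2, known as the heart and skeletal muscle isoform of subunit VIa, had log2 signals of 9.18, 9.21, 9.17 and 8.98 in untreated DN3b cells (sorts 1 to 4), against 7.28, 7.13, 7.09 and 7.28 in untreated DN3a cells. Every DN3b array exceeded every DN3a array by more than 1 log2 unit, and the change of 1.94 ± 0.10 was a 3.84-fold higher signal (limma adjusted p = 2.2e-07). Cox6a1, its widely expressed counterpart, had 13.85, 13.68, 13.8 and 13.69 in untreated DN3b cells, against 12.82, 12.64, 12.75 and 12.67 in untreated DN3a cells (1.03 ± 0.08, limma adjusted p = 1.8e-06). Both isoform genes were higher in DN3b cells in all 4 sorts, and both calls held under every alternative run.

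Cox7a2, the widely expressed isoform of subunit VIIa, was higher by 1.06 ± 0.14 (limma adjusted p = 9.2e-05), and its muscle isoform Cox7a1 was at 0.25 ± 0.10 (limma adjusted p = 0.053), and at 0.32 without sort 1 (limma adjusted p = 0.02). Cox7a2l, a related gene, had log2 signals of 11.81, 12.12, 11.86 and 11.91 in untreated DN3b cells (sorts 1 to 4), against 11.97, 12.64, 12.35 and 12.43 in untreated DN3a cells. It was lower in DN3b cells in each sort, with sort 1 of DN3a inside the DN3b range (-0.42 ± 0.09, limma adjusted p = 0.0018), and with median scaling at -0.21 (limma adjusted p = 0.077). Cox6b2, known as the testis isoform of subunit VIb, was at 7.49, 7.9, 7.45 and 7.58 in untreated DN3b cells, against 7.93, 7.73, 8.28 and 8.21 in untreated DN3a cells. It was lower in 3 of 4 sorts (-0.43 ± 0.16, limma adjusted p = 0.041), a call lost without sort 1, 3 or 4 (adjusted p of 0.099 to 0.17). Cox5a, which binds a regulatory thyroid hormone, was higher by 0.91 ± 0.09 (limma adjusted p = 9.6e-06), while Cox4i1, the widely expressed isoform of subunit IV, stood at 0.07 ± 0.10 (limma adjusted p = 0.59) and at 0.31 with median scaling (limma adjusted p = 0.03). With median scaling, 56 of the 72 genes were called higher and 1 lower. No share of all genes with this scaling is set beside this count.

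**Figure D2:**
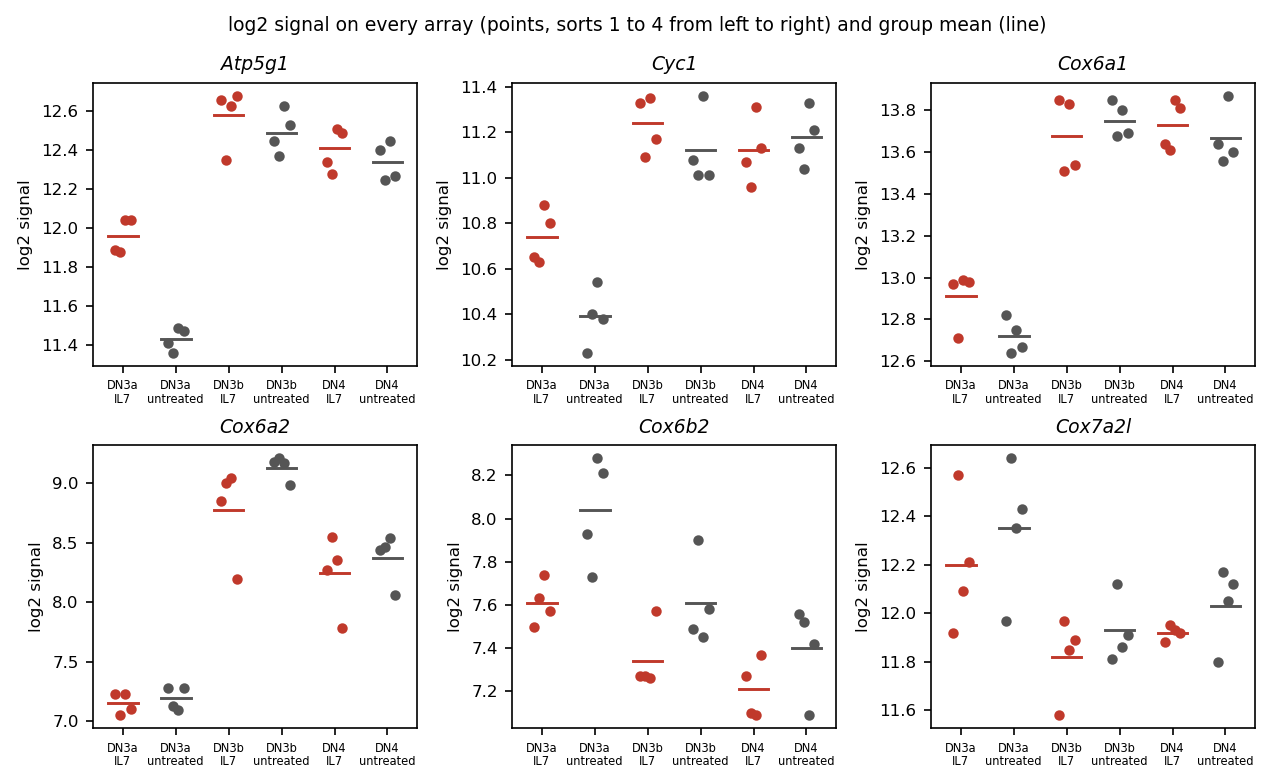
Log2 signal of 6 members on every array, with points for sorts 1 to 4 from left to right and lines for group means, IL7 in red and untreated in grey. Atp5g1, Cyc1, Cox6a1 and Cox6a2 lie lower in both DN3a groups than in the DN3b and DN4 groups, and Atp5g1 and Cyc1 lie higher in DN3a with IL7 than in untreated DN3a.

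The same stage comparison in IL7-treated cells used different arrays from the same sorts. There, 50 of the 72 genes were higher in DN3b than in DN3a and 3 were lower, against 23% and 27.7% of all genes, with a median log2 change of 0.38. In 42 genes all 4 DN3b arrays lay above all 4 DN3a arrays, which held for 18.5% of all genes. Uqcrh, Cox7a2l and Cox6b2 were the genes called lower, and none of these calls held with median scaling. Of the genes called higher, 45 were shared, which was 86.5% of the untreated list and 90% of the IL7 list. The same overlap was not counted over all genes, so it has no background share to be set against. Among the 15 other probes, 6 gave a different call with IL7 and 4 had the opposite sign. In DN3b with IL7, Cox6a2 had 8.85, 9, 9.04 and 8.19, against 7.23, 7.05, 7.23 and 7.1 in DN3a with IL7 (1.62 ± 0.14, limma adjusted p = 5.2e-06). Cox7a2 was higher by 1.33 ± 0.11 (limma adjusted p = 5.2e-06), Atp5a1 by 1.05 ± 0.09 (limma adjusted p = 4.7e-06), Cox7b, a small membrane subunit of complex IV, by 1.06 ± 0.17 (limma adjusted p = 4.3e-04) and Atp5g1 by 0.62 ± 0.08 (limma adjusted p = 9.8e-05). Without sorts 2 and 3, 22 members were called in this comparison, and without sorts 1 and 3, 35. Both runs left fewer arrays, and no share of all genes is set beside these counts.

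DN4 cells follow DN3b cells, and between these stages the subunit genes gave 1 call. In untreated cells 0 of 72 genes were higher in DN4 and 1 was lower, where limma called 1.45% of all genes higher and 2.57% lower. At an unadjusted p under 0.05, 6 members were higher and 1 lower, with no count made over all genes at this threshold. The called gene was Cox6a2, with log2 signals of 8.44, 8.46, 8.54 and 8.06 in untreated DN4 cells (sorts 1 to 4), against 9.18, 9.21, 9.17 and 8.98 in untreated DN3b cells. All DN4 arrays were below all DN3b arrays, a change of -0.76 ± 0.10 or 0.59-fold (limma adjusted p = 0.0031), and the call held without any 1 sort. It was lost without sorts 2 and 3 (-0.83, limma adjusted p = 0.094). With IL7, Cox6a2 was at 8.27, 8.55, 8.35 and 7.78 in DN4 cells, against 8.85, 9, 9.04 and 8.19 in DN3b cells (-0.53 ± 0.14, limma adjusted p = 0.049), with overlapping groups, where limma called 2.44% of all genes higher and 3.59% lower, and this call was lost without sort 1, 2 or 3 (adjusted p of 0.11 to 0.2).

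Set against DN3a, untreated DN4 cells had 50 genes higher and 4 lower (26.8% and 32.4% of all genes), with a median log2 change of 0.53. In 43 genes the DN4 arrays all lay above the DN3a arrays, against 20.2% of all genes. This comparison shares the untreated DN3a arrays with that of DN3b. Cox7a2 was at 8.1, 7.87, 7.58 and 7.68 in untreated DN4 cells (sorts 1 to 4), against 6.76, 6.74, 6.27 and 5.82 in untreated DN3a cells, without overlap (1.41 ± 0.14, limma adjusted p = 1.0e-05). Atp5o was higher by 1.34 ± 0.09 (limma adjusted p = 9.3e-07), Cox6a2 by 1.18 ± 0.10 (limma adjusted p = 4.9e-06) and Sdhb by 1.08 ± 0.11 (limma adjusted p = 1.6e-05). Cox6b2 was lower in 4 of 4 sorts (-0.64 ± 0.16, limma adjusted p = 0.0058). Cox7a2l, Ndufa6 and Uqcrh were also called lower, at -0.31, -0.28 and -0.24, and with median scaling they stood at -0.06, 0.04 and 0.14 and were not called. Without sorts 2 and 3, which leaves fewer arrays, 46 members were called, with no share of all genes set beside this count. The part of the granulocyte and myeloid signal of DN4 cells in this comparison was not tested. Among the 15 other probes, 6 gave a different call and 1 had the opposite sign.

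Genes that work with the chain were compared from lists of their known functions. In untreated DN3b against untreated DN3a cells, limma called 24.9% of all genes higher and 31% lower. Of 36 measured assembly factors, 14 (38.9%) were called higher and 3 (8.33%) lower, with a median log2 change of 0.21. Ndufaf5 and Ndufaf7, which modify complex I subunits during its assembly, were higher by 0.77 ± 0.11 and 0.75 ± 0.09 (limma adjusted p = 2.0e-04 and 3.5e-05), while Ttc19, which acts late in complex III assembly, was lower by -0.49 ± 0.07 (limma adjusted p = 2.1e-04). Of 15 genes of the tricarboxylic acid cycle and pyruvate dehydrogenase, 8 (53.3%) were higher and 2 (13.3%) lower, with a median of 0.28. Cs, the citrate synthase at its entry, was higher by 0.76 ± 0.12 (limma adjusted p = 3.6e-04) and Idh2, the NADP-dependent isocitrate dehydrogenase, lower by -0.53 ± 0.12 (limma adjusted p = 0.0028). Of 16 carriers and electron carriers, 11 (68.8%) were higher and 0 lower, with a median of 0.44. They include Coq7, an enzyme of ubiquinone synthesis, at 1.43 ± 0.20, and Vdac3, an outer membrane channel, at 1.02 ± 0.13 (limma adjusted p = 1.5e-04 and 8.3e-05). No probe was named for any of the 13 subunits encoded in mitochondrial DNA, which were not analysed here.

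Regulators of mitochondrial gene expression did not all go one way, with 9 of 17 (52.9%) higher and 3 (17.6%) lower in untreated DN3b cells. Over all genes these shares were 24.9% and 31%. Polg, the mitochondrial DNA polymerase, was higher by 1.85 ± 0.10 (limma adjusted p = 2.4e-07), and Tfb1m, a mitochondrial ribosomal RNA methyltransferase, by 1.15 ± 0.10 (limma adjusted p = 3.9e-06). Gabpa, the factor that binds the ETS motif searched above, was higher by 1.05 ± 0.10 (limma adjusted p = 7.0e-06), and Nrf1 by 0.63 ± 0.08 (limma adjusted p = 9.9e-05). Esrra, a nuclear receptor, and Ppargc1b, its coactivator, were lower by -0.79 ± 0.10 and -0.70 ± 0.13 (limma adjusted p = 5.5e-05 and 0.0011). The chart of shares called sets these lists beside the complexes.

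**Figure D3:**
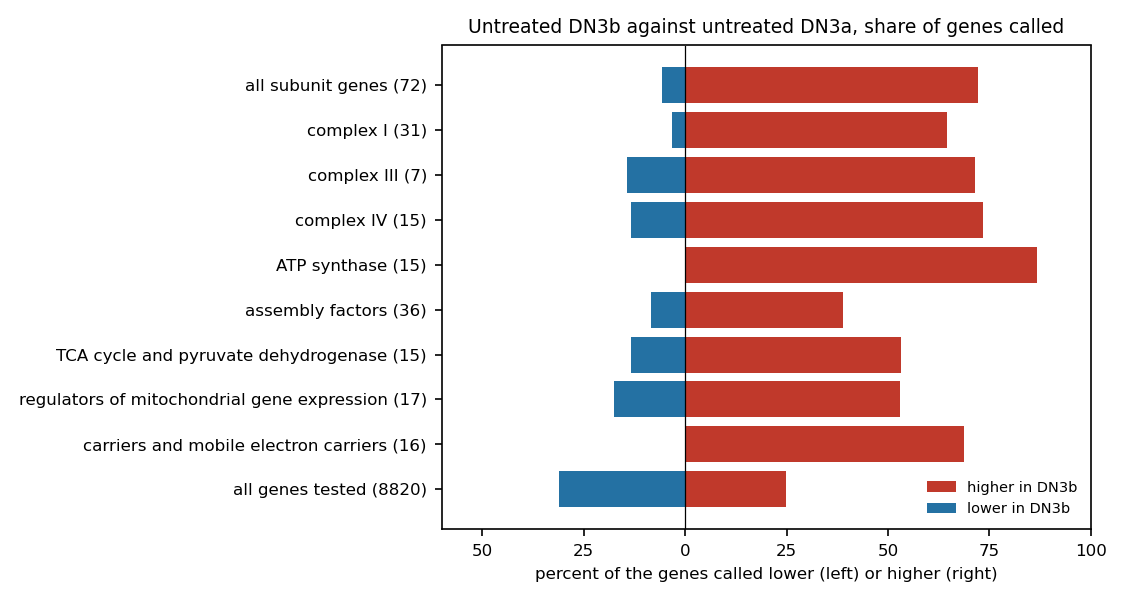
Percent of the genes in each complex or list called lower (blue, left) or higher (red, right) in untreated DN3b against untreated DN3a cells, with the number of genes in brackets. ATP synthase reaches 13 of 15 genes higher, and all 8820 genes tested have 24.9% higher and 31% lower.

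IL7 changed few of these genes within 3 h. In DN3a cells 4 of the 72 genes were called higher and 1 lower, against 9.44% and 11.5% of all genes, so their share of calls was not above the background. At an unadjusted p under 0.05, 15 members were higher and 2 lower, and 20 were higher and 4 lower in all 4 sorts. No such counts were made over all genes, so these have no background share to be set against. The per-array median of the 72 genes was 11.93, 11.93, 12 and 11.98 in DN3a cells with IL7 of sorts 1 to 4, against 11.94, 11.91, 11.93 and 11.78 in untreated DN3a cells, and the groups overlapped. Atp5g1 had log2 signals of 11.89, 11.88, 12.04 and 12.04 in DN3a cells with IL7, against 11.41, 11.36, 11.49 and 11.47 in untreated DN3a cells. All IL7 arrays were above all untreated arrays (0.53 ± 0.07, 1.45-fold, limma adjusted p = 8.7e-05). Cyc1 had 10.65, 10.63, 10.88 and 10.8 with IL7, against 10.23, 10.4, 10.54 and 10.38 untreated, also without overlap (0.35 ± 0.06, limma adjusted p = 0.0013). Both calls held without any 1 sort, and both were lost without sorts 2 and 3 (0.53 and 0.42, limma adjusted p = 0.055 and 0.076). Without sorts 1 and 3 the Cyc1 call was lost (0.33, limma adjusted p = 0.1) and that of Atp5g1 held. Some markers of other cells also moved with IL7 in DN3a cells. Lyz2, a myeloid lysozyme, was lower by -0.92 ± 0.15 (limma adjusted p = 8.7e-04) and Irf8, a factor of myeloid and dendritic cells, higher by 0.66 ± 0.17 (limma adjusted p = 0.013). The 5 dendritic cell markers, Irf8 among them, summed to a linear signal of 294 to 362 with IL7, against 229 to 309 untreated. Siglech, also of this list, went the other way, with a mean log2 signal of 4.9 with IL7, against 5.34 untreated. Itgax, of the same list, was not detected on any array. The natural killer and cytotoxic markers summed to a linear signal of 2820 to 3920 with IL7, against 1890 to 2310 untreated, with Ncr1 not detected. The granulocyte and myeloid markers summed to 221 to 947 with IL7, against 258 to 1170 untreated. The part of these markers in the IL7 result was not tested.

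The other calls in DN3a cells went the same way in all 4 sorts but did not all pass without each sort. Atp5o was at 8.77, 8.43, 8.64 and 8.46 with IL7, against 8.49, 8.33, 8.05 and 8.06 untreated (0.34 ± 0.08, limma adjusted p = 0.0087), with the IL7 arrays of sorts 2 and 4 below the highest untreated array. Ndufa12 was higher by 0.24 ± 0.06 (limma adjusted p = 0.014). Cox6b2 was at 7.5, 7.63, 7.74 and 7.57 with IL7, against 7.93, 7.73, 8.28 and 8.21 untreated, lower in 4 of 4 sorts (-0.43 ± 0.11, limma adjusted p = 0.015). The Atp5o call was lost without sort 3 or 4 (0.26 and 0.32, limma adjusted p = 0.08 and 0.06), and the Ndufa12 call without sort 1, 2 or 4 (0.2 to 0.25, limma adjusted p of 0.075 to 0.12). That of Cox6b2 was lost without sort 1, 3 or 4 (-0.43 to -0.35, limma adjusted p of 0.083 to 0.092). Without background correction, and with the authors' log2 values, 11 members were called. No share of all genes under these settings is set beside this count.

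In DN3a cells Atp5g2 showed -0.03 ± 0.07 and Atp5g3 0.21 ± 0.07 (limma adjusted p = 0.79 and 0.061), beside 0.53 for Atp5g1. Atp5g3 was called higher under 4 alternatives, without background correction, with the authors' log2 values, with median scaling and with detection on all 24 arrays (limma adjusted p = 0.02, 0.029, 0.043 and 0.037). The differences between these genes were not tested. Because the IL7 effect in DN3a and the stage difference share the untreated DN3a arrays, the values of the IL7-raised genes are only set side by side. Atp5g1 showed 0.53 with IL7 and 1.06 between stages, Cyc1 0.35 and 0.73, Atp5o 0.34 and 1.21, and Ndufa12 0.24 and 0.83.

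**Figure D4:**
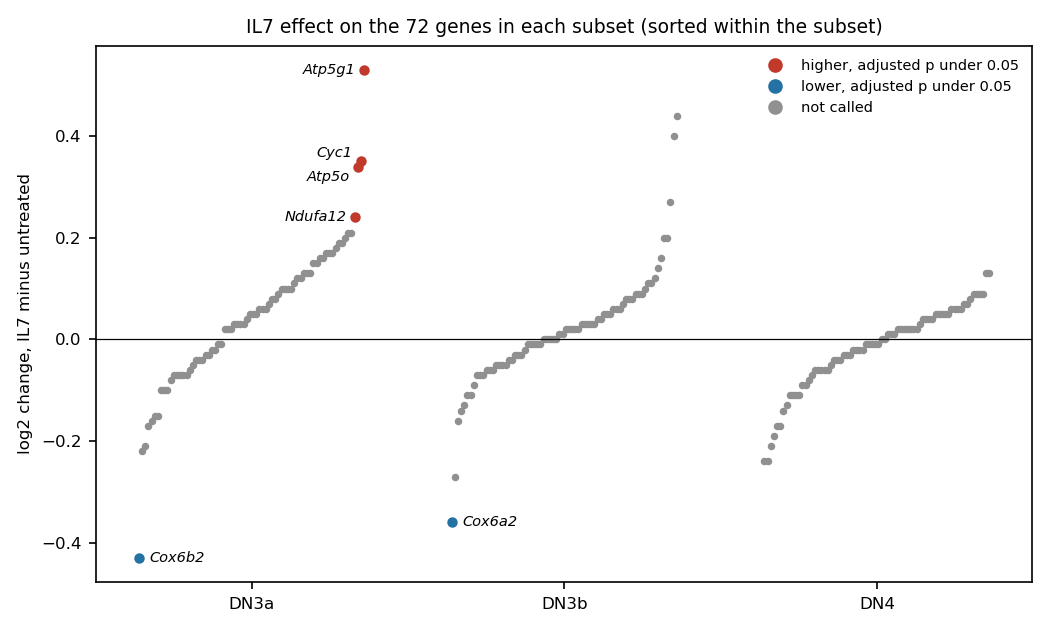
Log2 change with IL7 of each of the 72 genes in DN3a, DN3b and DN4 cells, sorted by size within a subset, with called genes coloured and named. Atp5g1 at 0.53 stands above the other genes in DN3a, and no point in DN4 is called.

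In DN3b cells IL7 gave 0 members higher and 1 lower (4.8% and 5.01% of all genes by limma), with 2 higher and 2 lower at an unadjusted p under 0.05. The unadjusted threshold was not counted over all genes, here or in DN4 cells. Cox6a2 had 8.85, 9, 9.04 and 8.19 in DN3b cells with IL7 of sorts 1 to 4, against 9.18, 9.21, 9.17 and 8.98 in untreated DN3b cells. It was lower in each sort, most in sort 4 with -0.79 (-0.36 ± 0.10, limma adjusted p = 0.04). The call was lost without sort 1, 2 or 4 (adjusted p of 0.09 to 0.24), and without sort 4 the change was -0.22. In DN4 cells limma called 0 members, where it called 1.86% of all genes higher and 0.578% lower, and 0 members had an unadjusted p under 0.05. Changes in DN4 ran from -0.24 to 0.13.

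The IL7 effect itself was compared between subsets. The effect on Atp5g1 was 0.09 in DN3b cells, against 0.53 in DN3a cells, a difference of -0.45 ± 0.09 (limma adjusted p = 0.028), and it was smaller in DN3b in 4 of 4 sorts. It was 0.07 in DN4 cells, a difference from DN3a of -0.47 ± 0.09 (limma adjusted p = 0.011). Cyc1 showed -0.06 in DN4 cells, against 0.35 in DN3a cells, a difference of -0.41 ± 0.09 (limma adjusted p = 0.018). These were the member calls, where 0.737% of all genes had a larger and 0.964% a smaller effect in DN3b than in DN3a, and 2.63% a larger and 2.73% a smaller one in DN4 than in DN3a. All 3 calls were lost when any 1 sort was left out, with differences between -0.39 and -0.51 and adjusted p-values of 0.051 to 0.21. At an unadjusted p under 0.05, 0 members had a larger and 7 a smaller effect in DN3b than in DN3a, and likewise 0 and 7 in DN4 against DN3a. The shares of all genes given here are for adjusted p-values, and no count over all genes was made at the unadjusted threshold. Whether the members differ from other genes in this was therefore not tested. Between DN4 and DN3b limma called 0 members (0.068% of all genes larger and 0.238% smaller in DN4), with 2 at an unadjusted p under 0.05.

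Among the related genes, IL7 in DN3a cells raised 5 of 36 assembly factors (13.9%) and lowered 1 (2.78%), against 9.44% and 11.5% of all genes. Ndufaf4, a complex I assembly factor, was higher by 0.74 ± 0.09 (limma adjusted p = 7.4e-05), Uqcc2, a complex III assembly factor, by 0.47 ± 0.10 (limma adjusted p = 0.004), and Cox17, the copper chaperone of complex IV, by 0.39 ± 0.07 (limma adjusted p = 0.0021). In DN3b cells Ndufaf4 was higher by 0.51 ± 0.09 (limma adjusted p = 0.0021), and in DN4 cells its effect was 0.17, a difference from DN3a of -0.57 ± 0.13 (limma adjusted p = 0.021) that was lost without any 1 sort (adjusted p of 0.062 to 0.12). Of the 17 regulators 1 rose in DN3a cells, Myc, a transcription factor of growth genes, by 0.49 ± 0.13 (limma adjusted p = 0.018), a call lost without sort 3 or 4 (adjusted p = 0.095 and 0.098). Of the genes of the tricarboxylic acid cycle, Suclg2 was higher by 0.28 ± 0.06 (limma adjusted p = 0.0055) and Idh2 lower by -0.58 ± 0.16 (limma adjusted p = 0.017), and the Idh2 call was lost without sort 2 or 3 (adjusted p = 0.12 and 0.053).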

How the data were processed

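Gene expression of 24 cultures (6 groups of 4 sorts) was measured on Illumina mouse Ref8v2 arrays. Per the file headers, the deposited table holds a linear signal intensity and a detection p-value for each of 25697 probes. The authors also deposited processed log2 values, used here as an alternative. GenomeStudio 2011.1 and limma are named in the submitters' processing notes. Intensities were corrected with neqc in limma 3.58.1 (R 4.3.3): background inferred from the detection p-values, offset of 16, quantile normalization, log2. The offset compresses the changes of dim probes. The number of arrays limits the precision.

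Probes detected (p under 0.05) on at least 4 of 24 arrays were kept (12939 probes), and the probe with the highest mean stood for each of 8820 genes. A single symbol was known for 23978 probes, several for 0 and none for 1719, and 23962 were brought up to date through gene identifiers. IL7 effects and their differences were fitted over 24 arrays with the 12 culture pairs as blocks, and stage comparisons over the 12 untreated or 12 IL7-treated arrays with the sort as block. The labels number the 4 sorts. Cultures of the same subset and sort deviated together (correlations of 0.24 or more, median 0.47), and arrays of the same sort in general had a median of 0.38. For different sorts and groups the median was -0.089. Because deviations were taken from group means over the same sorts, this last value is negative in part by construction. The design text also mentions technical replicates but does not say which arrays they are, so SE and p-values take the 4 sorts as independent samples. P-values were adjusted (Benjamini-Hochberg) over the 8820 genes, with 0.05 as threshold. The fit was tested on simulated data.

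Genes open to naming in any comparison were Ndufa9, Sdhb, Uqcrc1, Cyc1, Cox4i1, Cox5a, Atp5b and Atp5g1 to Atp5g3. Added to these were the 4 largest rises and falls that went the same way in 4 sorts, and all calls where there were 6 or fewer. Isoform genes and up to 4 called genes of each related list were also open to naming. Values of Ndufa9, Uqcrc1, Cox4i1, Cox5a and Atp5b are given only for untreated DN3b against untreated DN3a cells. The genes named for the IL7 effects are mostly called ones. Members, lists and motifs were chosen with earlier results of these data known. Alternatives changed the background correction, the scaling, the detection filter, the probe, the block and the sorts included.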

Additional observations from a re-analysis of the deposited data

Results flagged for a closer look

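Sets of 4 values by sort were checked for a value far from the other 3, for the changes of the named genes and for the per-group medians of the 72 genes. Of 76 sets, 3 held such a value, and chance alone gives about 1 in 20. Cox7a2l was lower in untreated DN3b than in untreated DN3a cells by -0.15 in sort 1, against -0.52 to -0.49 in the other sorts. Atp5a1 was higher in DN3b than in DN3a cells, both with IL7, by 0.84 in sort 1, against 1.1 to 1.13 in the other sorts. The median of the 72 genes in DN4 cells with IL7 was 12.22 in sort 3, against 12.18 to 12.19 in the other sorts.

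The IL7 effect differed between subsets by the test of the difference itself for Atp5g1 (-0.45, DN3b minus DN3a, and -0.47, DN4 minus DN3a) and for Cyc1 (-0.41, DN4 minus DN3a), by limma with adjusted p-values of 0.028, 0.011 and 0.018.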

How the results depend on the processing

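The counts in this section have no share of all genes under the same setting beside them. They therefore do not tell whether a change was particular to the members. The number of members called in untreated DN3b against DN3a cells, 56, ran from 39 to 59 over all alternatives, and in untreated DN4 against DN3a cells, 54, from 46 to 65. In the IL7-treated comparison of DN3b and DN3a, 53 members were called, 35 without sorts 1 and 3 and 22 without sorts 2 and 3. For the IL7 effect in DN3a, 5 members were called, 11 without background correction and 11 with the authors' values, 10 with detection required on all 24 arrays, 3 with the 8 arrays of the subset alone, 1 without sorts 1 and 3, 0 without sorts 2 and 3, and 2 to 5 with 1 sort left out. The 1 call for IL7 in DN3b became 0 under median scaling, without the detection filter, without the block, with the subset alone, without sorts 1 and 3 and without sorts 2 and 3, and 0 to 1 with 1 sort left out. The 1 call in the difference of DN3b and DN3a effects became 0 under median scaling, without the block, without either pair of sorts and with any 1 sort left out. The 2 calls for DN4 and DN3a became 4 without background correction and with the authors' values, and 0 without the block, without either pair of sorts and with any 1 sort left out. For untreated DN4 against DN3b, 1 call became 2 without background correction and with the authors' values, 3 with all arrays in the fit, and 0 without sorts 1 and 3 or 2 and 3. With IL7, 1 call became 0 under median scaling, without the detection filter, without the block, without sorts 1 and 3 and without sorts 2 and 3, and 0 to 1 with 1 sort left out. Without the replicate block, 45 members were called in untreated DN3b against DN3a, 48 in DN4 against DN3a, 47 in DN3b against DN3a with IL7 and 4 for IL7 in DN3a. Signs changed under median scaling for Ndufa6 (0.04) and Uqcrh (0.14) in untreated DN4 against DN3a, and for Uqcrh (0.01) in DN3b against DN3a with IL7. The cause of these changes was not tested, except that leaving out sorts leaves fewer samples. Of 102 called results of single genes, 56 kept their call under every alternative, and of 125 uncalled ones 116 stayed uncalled. The settings without sorts 2 and 3 were chosen after seeing the data.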
